A study of Drosophila melanogaster with 4 samples.

Results

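Long domains of histone H4 lysine 20 monomethylation (H4K20me1) were examined in nuclei of Drosophila melanogaster larvae. They are the regions of the authors' series-wide list of enriched regions that are at least 20 kb long, lie on one of the 5 major chromosome arms (2L, 2R, 3L, 3R and X) and overlap a region of each replicate list by 1 bp or more. This gave 312 domains among the 5318 regions of that list, of which 5146 lie on the major arms. They were chosen by their length in the series-wide list and by their overlap with the replicate lists, so neither is a finding.

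The animals were wild-type larvae of the Oregon-R strain (Oregon-R-modENCODE) at the third instar, and the age in hours and the sex are not given. Chromatin was crosslinked, sonicated and immunoprecipitated with the third lot of an antibody to H4K20me1 in 2 ChIP samples (replicates 1 and 2), and sequenced beside 2 input samples, 1 for each ChIP. There is 1 condition, so the values below compare the 2 replicates, the arms, and long domains with shorter regions, and all of them are descriptions without a test. Nothing says whether the replicates were separate collections of larvae. Read depth is unknown, because the lists hold positions and scores and no counts. Positions are on FlyBase release 5, 1-based. Regions are named by position, because an annotation of that release was not used here.

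In Drosophila the mark is placed by the methyltransferase PR-Set7, and the enzyme Suv4-20 adds further methyl groups to the same lysine. PR-Set7 is known for its part in cell cycle progression and in keeping chromosomes intact. In mammalian cells the mark is known over the bodies of transcribed genes and on the inactive X chromosome. A third-instar larva holds diploid cells of the imaginal discs and brain beside polyploid cells of larval tissues, and the larvae were not sorted by cell type. In such a mixture, a domain marked in fewer cells and one marked less strongly in each cell cannot be told apart.

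Long domains are the longest regions by rule, so they hold a larger share of the bases than of the regions, which is not a finding. They were 6.06% of the series-wide regions on the major arms and 32.8% of the enriched bases there, 10.7 Mb in all, or 9.00% of the length of these arms. Most were near the shorter end of the range. Of the 312, 165 were under 30 kb, 102 were of 30 to 50 kb, 45 were of 50 kb or more and 10 were of 80 kb or more. The median was 28.9 kb, and the middle 50% of domains lay between 23.0 and 39.6 kb. Series-wide regions of 10 to 20 kb that overlapped both replicates, the nearest shorter class, numbered 558 and held 23.5% of the bases. The threshold divides a continuous range. The shortest members were 3L from 14341364 to 14361376 (20013 bp), 2L from 11951288 to 11971332 and 2R from 4023942 to 4043986. The longest regions just under it were 2L from 6498298 to 6518226 (19929 bp), 3R from 10114500 to 10134418 and X from 10688932 to 10708834. All 312 regions of 20 kb or more on the major arms overlapped both replicates, so that condition removed none of them; over all series-wide regions on these arms the share was 62.2%.

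Long domains were enriched over most of their length in each replicate, and the replicates shared most of the marked bases. For the median domain replicate 1 marked 97.1% of the length and replicate 2 marked 94.9%, and 90.5% was marked by both at once (25th and 75th percentiles 81.0 and 95.6%). In regions of 10 to 20 kb the medians were 95.1%, 92.7% and 84.2%. At least 90% of the length was enriched in both replicates in 165 of the 312 domains (52.9%, exact Clopper-Pearson 95% interval 47.2 to 58.5%) and in 179 of the 558 regions of 10 to 20 kb (32.1%, 28.2 to 36.1%). Over all series-wide regions on the major arms that overlapped both replicates it was 22.5%. These intervals cover counting error over regions only, and regions of 1 pair of libraries are not replicates. The percentage also depends on length, because a given distance between the replicates' ends takes up more of a shorter region. Median lengths were 28.9 kb in the domains and 13.3 kb in the regions of 10 to 20 kb, with end distances alike. The part of length in the difference was not tested. Over all domain bases together, 94.2% were enriched in replicate 1, 92.7% in replicate 2 and 87.6% in both. With shares this high in each replicate, most of the domain bases had to be shared. How far the replicates agreed beyond that was not tested. Replicate 1 alone marked 6.64%, replicate 2 alone marked 5.11%, and neither marked 0.66%. The bases in neither are called by the series-wide list alone. Replicate 1 covered the larger share in 199 of 312 domains (63.8%, against 54.0% over all regions that overlapped both).

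**Figure D1:**
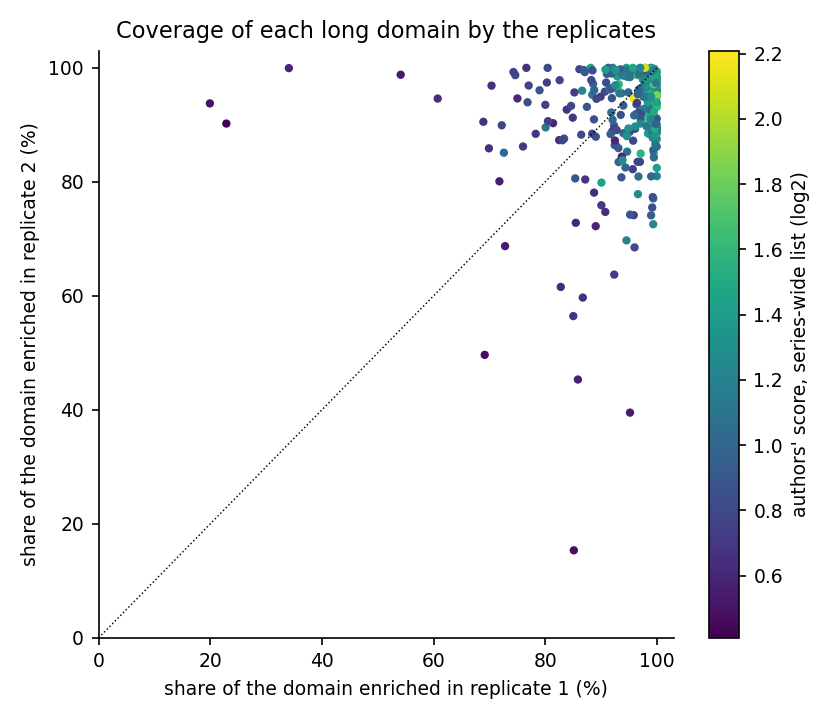
Share of each of the 312 long domains enriched in replicate 1 (horizontal axis, %) against the share enriched in replicate 2 (vertical axis, %); each point is 1 domain, its colour is the authors' log2 score in the series-wide list and the dotted line marks equal shares. Most points crowd the upper right corner (medians 97.1% and 94.9%), and the domains far from it are dark, that is, low-scored, on either side of the line.

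In a small group of domains the replicates shared little, and in the extreme ones one replicate marked most of the length and the other little. There were 10 domains of 312 with under 50% of their bases enriched in both, and all 10 were among the 78 lowest-scored of the 312. Such low shares were more common among shorter regions, with 60 of the 558 regions of 10 to 20 kb. Over all series-wide regions on the major arms that overlapped both replicates there were 686 of 3200. The lowest share was on 3L from 14309474 to 14340220 (30.7 kb), which was enriched over 85.1% in replicate 1, 15.4% in replicate 2 and 11.2% in both. Here replicate 1 was the high one. The next was on 3L from 4746826 to 4769090 (22.3 kb), where replicate 1 covered 19.9% and replicate 2 covered 93.8%. On 3R from 18085256 to 18105442 (20.2 kb) the shares were 22.9% and 90.2%, and on X from 1865202 to 1886158 (21.0 kb) they were 34.1% and 100.0%. In these 3 domains replicate 2 was the high one. On 2L from 22891036 to 22911762 (20.7 kb) replicate 1 covered 85.9% and replicate 2 covered 45.3%. The scores of these 5 domains ran from 0.41 to 0.60, all low for a long domain. None of the 45 domains of 50 kb or more was among the 10, and the lowest share enriched in both at that length was 69.5%. With 10 such domains in all, few could fall among 45.

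A long domain of the series-wide list was often several regions in a replicate list. The median domain met 2 regions in each replicate, and 53 of 312 (17.0%, 13.0 to 21.6%) were a single region in both. Of all series-wide regions that overlapped both replicates, 62.3% were, but most of these are short. Of the regions of 10 to 20 kb, 173 of 558 were (31.0%, 27.2 to 35.0%). Taken singly, replicate 1 had 123 of the domains in 1 region and replicate 2 had 104. The domains that were whole in one list were frequently split in the other. Replicate 2 split 70 of those that were whole in replicate 1, replicate 1 split 51 of those that were whole in replicate 2, and 138 were split in both. Of the 558 regions of 10 to 20 kb, 294 were whole in replicate 1 and 269 in replicate 2. Replicate 2 split 121 of the former, replicate 1 split 96 of the latter, and 168 were split in both. Of all 3200 regions that overlapped both replicates, 2382 and 2416 were whole. Of these, 388 and 422 were split by the other replicate, and 396 regions were split in both. Which replicate split more thus differed between long domains and all regions. The longest domain that was a single region in both was on 2L from 7891792 to 7977608 (85.8 kb), and replicate 1 covered 99.9% of it and replicate 2 covered 98.1%.

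The breaks between the pieces were short and, within these series-wide regions, mostly did not coincide. Inside the domains replicate 1 had 433 stretches without enrichment between enriched ones, with a median of 528 bp, and 67.2% of them were under 1 kb. Replicate 2 had 473 such breaks with a median of 505 bp, and 70.8% were under 1 kb. The longest break was 7.82 kb in replicate 1 and 10.1 kb in replicate 2. Of the replicate 1 breaks, 358 (82.7%, 78.8 to 86.1%) were enriched over their whole length in replicate 2. Of the replicate 2 breaks, 411 (86.9%, 83.5 to 89.8%) were enriched over their whole length in replicate 1. By bases, 92.3% of the replicate 1 breaks were enriched in replicate 2, beside 92.7% of all domain bases. In the other direction 94.5% of the replicate 2 breaks were enriched in replicate 1, beside 94.2% of all domain bases. A break in one replicate was thus enriched in the other about as often as the domains as a whole. Breaks were counted only inside series-wide regions of 20 kb or more, where just 0.66% of bases were marked by neither replicate. A stretch unmarked in both replicates could have ended or parted such a region. How far the choice of regions set these shares was not tested.

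The most divided domains show how unlike the splitting could be in the 2 lists. On 2R from 6915202 to 6994366 (79.2 kb) replicate 1 had 12 regions over 70.4% of the domain and replicate 2 had 4 over 96.9%. On 3L from 22287092 to 22401048, the longest domain of all at 114.0 kb, replicate 1 had 9 pieces where replicate 2 had 1, yet replicate 1 still covered 93.4%. On 3R from 19115550 to 19172256 (56.7 kb) it was replicate 2 that had 9 regions and replicate 1 that had 1, and replicate 2 covered 90.9%. In these last 2 domains the breaks took up little of the length. On 3L from 5193066 to 5241494 (48.4 kb) both lists were divided, into 10 and 8 regions that covered 88.8% and 78.1%. On 3R from 14871896 to 14922476 (50.6 kb) they had 8 and 5 regions over 90.7% and 95.8%.

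The authors' score of a region is a log2 value with an unknown offset, so it serves to rank regions within a list and is no fold enrichment. Long domains ranked high: their median score was 1.07, at the 87.4th percentile of the series-wide regions on the major arms, and 253 of 312 (81.1%) were in the upper 25% of that list. The domains spanned much of the scale all the same, from the 35.5th to the 99.9th percentile, and 3 of them were below the median of the list. Regions of 10 to 20 kb had a median at the 82.1st percentile. Among the domains themselves length and score were nearly unrelated (Spearman's rho 0.12 across 312 domains). Both replicates ordered the domains alike by the score of the region with the largest overlap (rho 0.72). Domains share their libraries and are not independent replicates.

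Domains with high scores were less divided, and the lowest-scored ones were the least covered. The 312 domains were put into 4 groups of 78 by score. In the group with scores of 0.41 to 0.85, 2 domains were a single region in replicate 1 and 7 were in replicate 2. In the second group 24 were in each replicate, in the third 42 and 27, and in the group with scores of 1.31 to 2.21, 55 and 46. The median share enriched in both replicates was 75.1% in the lowest group, then 90.1%, 94.7% and 95.5%. Median lengths in the 4 groups were 26.5, 30.1, 28.5 and 31.2 kb. Across the 312 domains the score went with the share enriched in both (rho 0.68) and against the number of pieces (rho -0.65 in replicate 1 and -0.46 in replicate 2). The shares of the 2 replicates in a domain were barely related to each other (rho 0.12). These shares had medians of 97.1% in replicate 1 and 94.9% in replicate 2. Just 0.66% of domain bases were marked by neither, which limits how far both shares can be low together. How far these limits set the low rho was not tested. Score and calls come from the same reads, so these values describe the lists and were not tested.

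**Figure D2:**
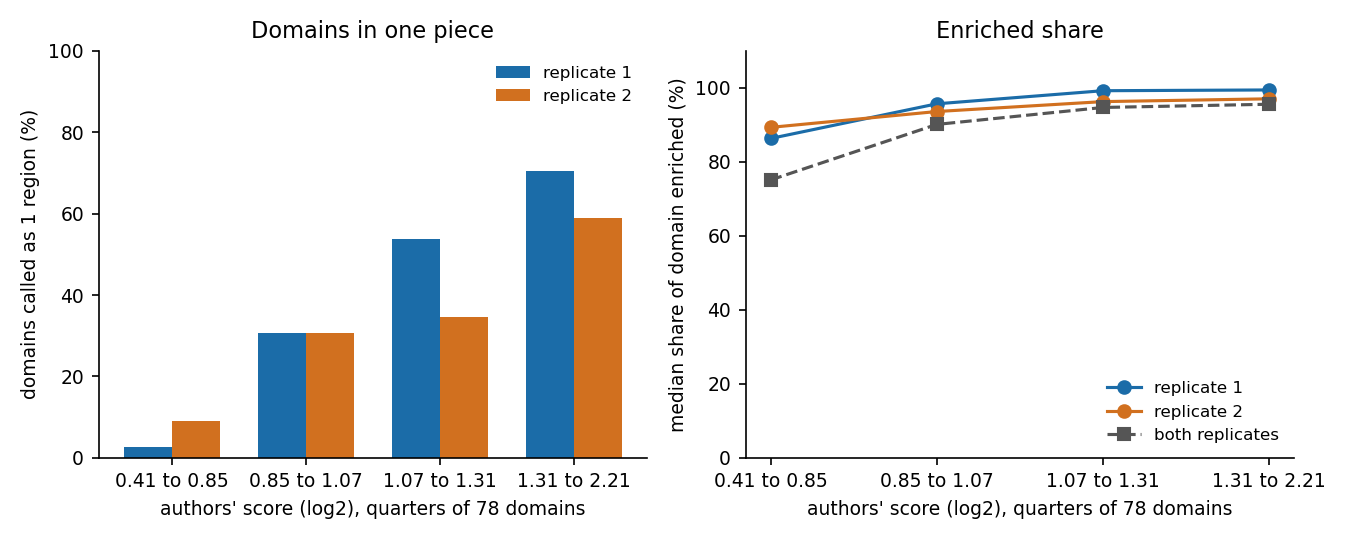
Long domains in 4 groups of 78 by the authors' log2 score in the series-wide list (horizontal axis): left, bars of the percentage of domains called as 1 region in replicate 1 and in replicate 2; right, the median percentage of a domain enriched in replicate 1, in replicate 2 and in both. The share in 1 piece climbs over the groups, with 2 and 7 domains in the lowest and 55 and 46 in the highest, while the enriched share changes mainly between the first and the second.

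Every major arm carried long domains, and the X chromosome carried the fewest for its length. There were 39 on X, 60 on 2L, 68 on 2R, 69 on 3L and 76 on 3R. This is 1.74 per Mb on X, 2.61 on 2L, 3.22 on 2R, 2.81 on 3L and 2.72 on 3R. Over the 4 autosomal arms together it was 2.83 per Mb, so the density on X was 0.62 times the autosomal one. The order of X below each autosomal arm held in the replicates' own lists of regions of 20 kb or more. In replicate 1 the density on X was 1.25 per Mb, against 1.97 on the autosomal arms, with a range of 1.80 to 2.08 over these arms. In replicate 2 it was 0.80 per Mb, against 1.67, with a range of 1.35 to 1.99. The autosomal arms did not keep one order, since 2R was the lowest of them in replicate 1 and the highest in replicate 2. The sex of the larvae is not given, and the part of X copy number, mappability or input in this difference was not tested.

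Among the length classes compared, the lower density on X was seen in the longer ones. Domains of 50 kb or more had a density on X of 0.178 per Mb (4 domains) against 0.424 on the autosomal arms (41 domains), a ratio of 0.42. For regions of 10 to 20 kb that overlapped both replicates the ratio was 0.92, at 4.37 and 4.76 per Mb, and for all series-wide regions it was 1.08. Long domains were 3.79% of the regions on X and between 6.41 and 6.93% of those on each autosomal arm. For the domains on X the median length was 26.6 kb against 29.7 kb on the autosomal arms, the median score 1.13 against 1.07, and the median share enriched in both replicates 90.1% against 90.5%. The share by replicate went in opposite directions, with medians of 98.1% on X against 97.0% on the autosomal arms in replicate 1 and of 91.7% against 95.3% in replicate 2, where X was the lowest of the 5 arms. With 4 domains of 50 kb or more on X, the ratio for that class rests on few regions.

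**Figure D3:**
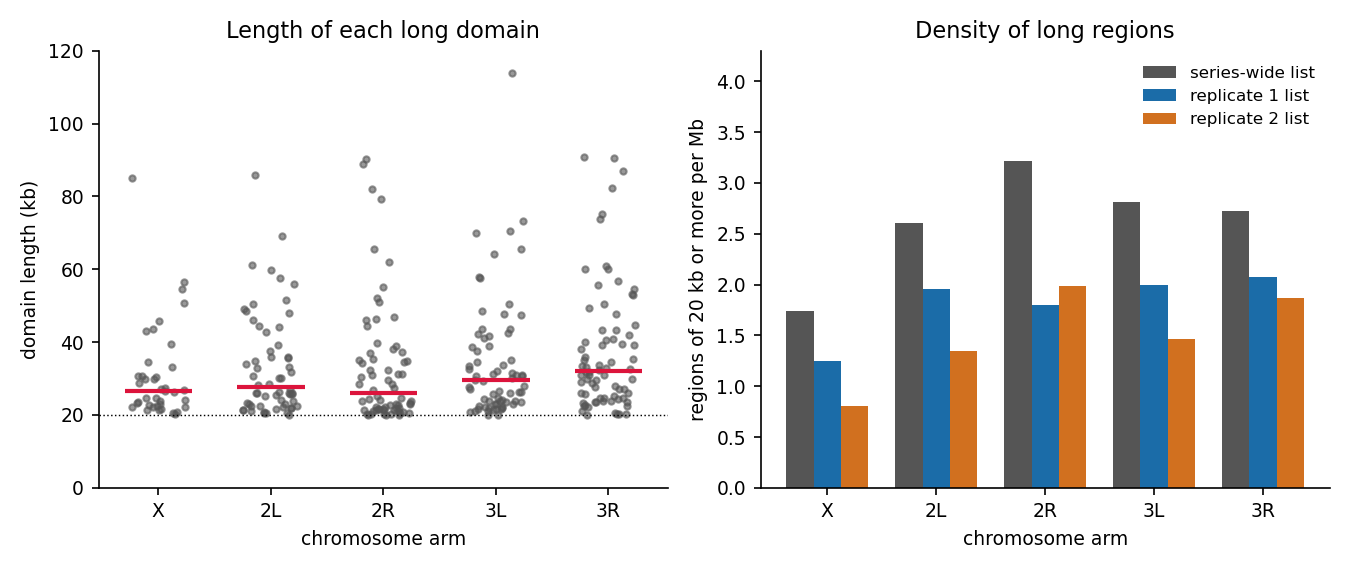
Left, length in kb of each long domain (points) by chromosome arm, with the median of the arm as a red line and the 20 kb minimum dotted; right, bars of the number of regions of 20 kb or more per Mb of arm in the series-wide list (the domains) and in the list of each replicate. X has the lowest bars in all 3 lists (1.74, 1.25 and 0.80 per Mb), and the medians of the 5 arms lie between 26.0 and 32.1 kb.

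The 3 longest domains of each arm, 15 in all, were 54.7 to 114.0 kb long, and 12 of them were enriched over at least 90% of their length in both replicates. On X they were 19247182 to 19332174 (85.0 kb), 12579812 to 12636226 (56.4 kb) and 18859194 to 18913872 (54.7 kb), with scores of 1.18, 1.44 and 0.99. The first was covered over 99.1% in both replicates, the highest share of the 15, and the last over 85.4%. On 2L, after the 85.8 kb domain given above, came 18319916 to 18389170 (69.3 kb) and 16601884 to 16663186 (61.3 kb). The last of these had 80.9% in both, the lowest of the 15, because replicate 2 covered 80.9% where replicate 1 covered 96.7%. On 2R they were 17278346 to 17368736 (90.4 kb), 13152708 to 13241530 (88.8 kb) and 14163154 to 14245220 (82.1 kb). The second of these had the lowest score of the 15, at 0.88, and lay in 5 and 7 regions. On 3L, after the 114.0 kb domain, they were 506186 to 579556 (73.4 kb) and 3717428 to 3788064 (70.6 kb). The first of this pair was the highest-scored of the 15. On 3R they were 10217008 to 10307772 (90.8 kb), 4893860 to 4984342 (90.5 kb) and 21341762 to 21428866 (87.1 kb), with 96.2%, 96.1% and 91.5% enriched in both.

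The 3 highest-scored domains of each arm were other domains, with none shared with the 3 longest, and were 21.3 to 70.0 kb long. Their scores ran from 1.62 to 2.21, and 14 of the 15 were enriched over at least 90% in both replicates. The highest was on 3L from 16131024 to 16158118 (27.1 kb, score 2.21), followed on that arm by 17942908 to 18012932 (70.0 kb, 1.73) and 19872422 to 19906846 (34.4 kb, 1.66). On 3R they were 5166804 to 5190432 (23.6 kb, 2.16), 23388438 to 23412372 (23.9 kb, 1.87) and 16604336 to 16637422 (33.1 kb, 1.69). The last had 89.2% enriched in both, the lowest of these 15. On X they were 1528530 to 1563164 (34.6 kb, 2.10), 2528024 to 2571574 (43.6 kb, 1.75) and 6971314 to 6992618 (21.3 kb, 1.72). On 2R they were 1988376 to 2027296 (38.9 kb, 2.02), 8459438 to 8480690 (21.3 kb, 1.90) and 15343354 to 15374416 (31.1 kb, 1.67). On 2L they were 154890 to 203308 (48.4 kb, 2.07), 9176130 to 9218970 (42.8 kb, 1.82) and 9221808 to 9247352 (25.5 kb, 1.62), and the last 2 are neighbours with 2837 bp between them.

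The replicates placed the ends of a long domain close together. Taking the outermost ends of all replicate regions that meet the domain, the median distance between the replicates was 712 bp at the lower-coordinate end (25th and 75th percentiles 218 and 1630 bp) and 659 bp at the other (196 and 1744 bp). In regions of 10 to 20 kb the medians were 767 and 637 bp. Both ends lay within 1 kb in 108 of the 312 domains (34.6%) and in 190 of the 558 shorter regions (34.1%), and in 42.1% of all regions that overlapped both replicates. The ends of long domains, with a median length of 28.9 kb, were thus placed about as closely as those of the shorter regions, with a median length of 13.3 kb. Replicate 1 reached further out at the lower-coordinate end in 197 of the 312 domains and at the other in 185. The counts were 337 and 317 of the 558 regions of 10 to 20 kb. Of all 3200 regions that overlapped both replicates they were 1761 and 1708, so a wider replicate 1 was not particular to long domains. When each replicate was represented by its region of largest overlap alone, the medians were 2106 and 2180 bp, since the domains are often in pieces.

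At a few domains the outermost ends of the replicates lay far apart. The distance exceeded 5 kb at the lower-coordinate end of 15 of the 312 domains and at the other end of 19. The counts were 32 and 26 of the 558 regions of 10 to 20 kb. Of all 3200 regions that overlapped both replicates they were 134 and 156. Distances this large were thus not particular to long domains. Among the domains the largest were 35762 bp on 2R (9919110 to 9945942) and 32489 bp on 3L (2506592 to 2554364). In both of these a replicate 1 region that lay mostly in the next domain, 565 and 97 bp away, reached back over the gap into the last bases of the domain, and its far end was counted. The next were 17699 bp on 2R (6400008 to 6431268), 14205 bp on 3L (19872422 to 19906846) and 13907 bp on 3R (9792490 to 9848306), and these 3 domains were themselves enriched over at least 90.8% in both replicates.

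**Figure D4:**
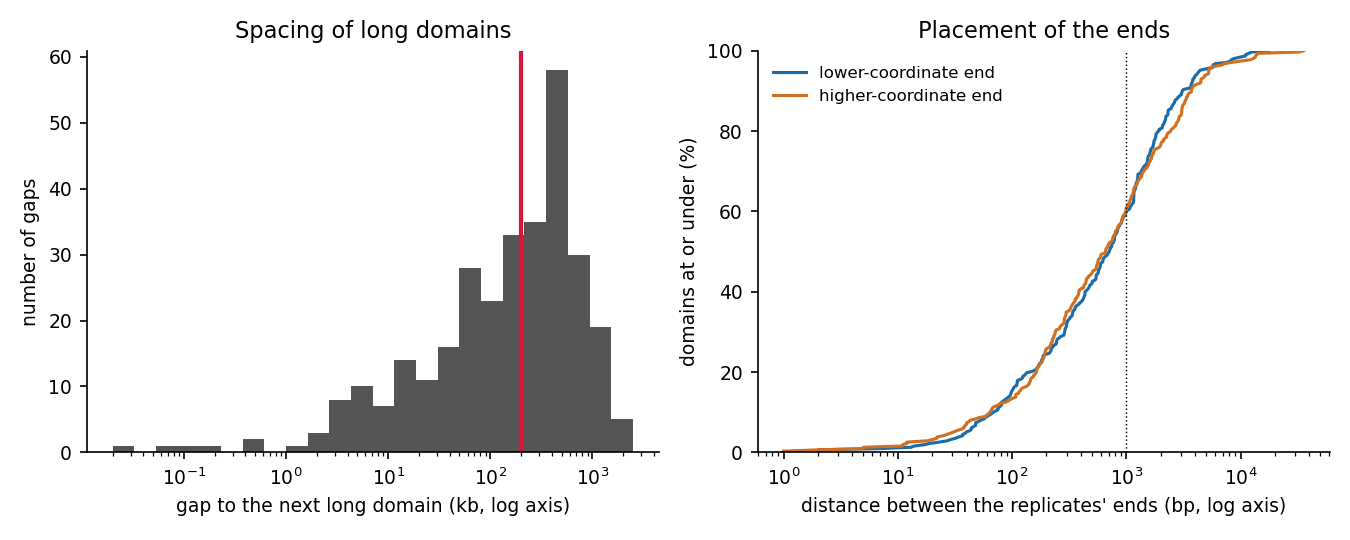
Left, number of gaps between neighbouring long domains by gap size in kb on a log axis, with the median of 200 kb as a red line (307 gaps); right, percentage of the 312 domains whose ends in the 2 replicates lie within a given distance in bp (log axis), for the lower- and the higher-coordinate end, with 1 kb dotted. Gaps spread from 29 bp to about 2 Mb, and at 1 kb the curves stand near 60%, from 187 and 190 domains.

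Over flanks of 20 kb the sequence beside the domains was marked more than the arms as a whole, though the first 1 kb in replicate 2 was marked less. Series-wide ends are where enrichment was called to stop, so a drop there is part of the definition. Between 1 and 2 kb inside an end 91.9% of bases were enriched in replicate 1 and 87.3% in replicate 2, and in the first 1 kb outside 28.7% and 16.7% were. From 9 to 10 kb outside the shares were 40.4% and 36.2%, and from 49 to 50 kb they were 33.7% and 28.5%, beside 25.5% and 23.4% over the 5 arms. Over flanks of 20 kb on each side, 37.5% and 33.6% of bases were enriched. Leaving out the flank bases that belong to another long domain gave 31.1% and 27.4%, beside 18.7% and 16.6% over all sequence outside the domains. Flanks of 20 kb beside regions of 10 to 20 kb had 35.1% and 33.1% over all flank bases. Without bases of regions of that class they had 29.3% and 27.3%. Bases of long domains were left in there, so these 2 values are not matched to the 31.1% and 27.4% above. Over all flank bases, a marked neighbourhood was thus not particular to the longer class in these lists.

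**Figure D5:**
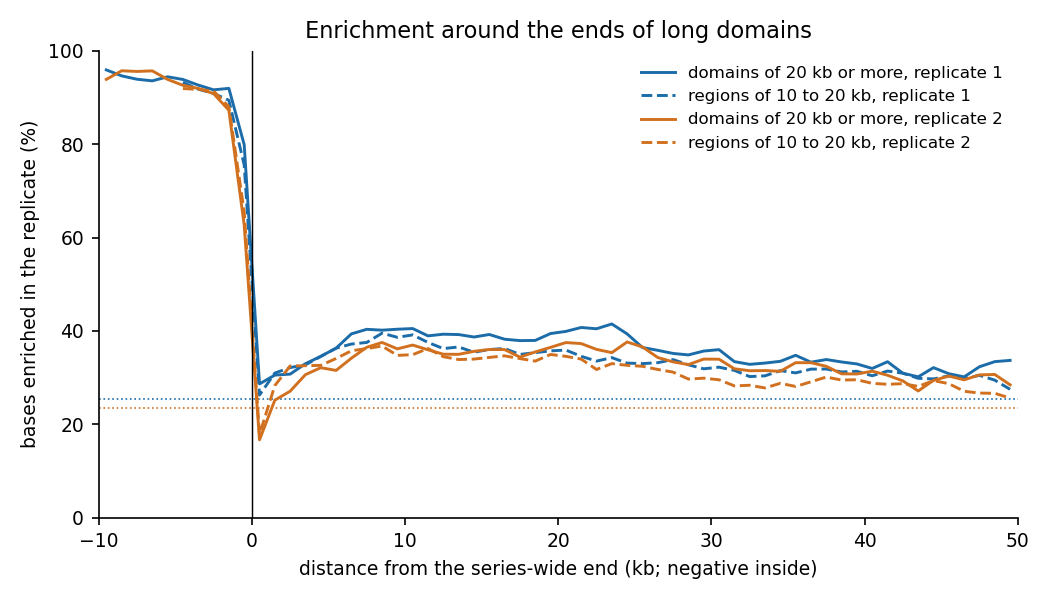
Percentage of bases enriched in replicate 1 (blue) and replicate 2 (orange) in bins of 1 kb by distance from the series-wide end, from 10 kb inside to 50 kb outside, for long domains (solid) and regions of 10 to 20 kb (dashed), with the share over the 5 arms dotted. Enrichment drops to 28.7% and 16.7% in the first 1 kb outside and beyond it stands above the share of the arms out to 50 kb in both replicates. Bases of other long domains are counted here. Without them, flanks of 50 kb had 26.4% and 24.1% enriched, close to the 25.5% and 23.4% of the arms. All sequence outside the domains had 18.7% and 16.6%.

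The spacing of long domains along the arms varied widely, and it was not compared with a random placement. The gap between neighbours had a median of 200 kb, 25th and 75th percentiles of 52.0 and 460 kb, a smallest value of 29 bp and a largest of 1954 kb, on X. The median gap was 417 kb on X and 137 to 226 kb on the autosomal arms. Of 117 full windows of 1 Mb, 12 held no domain midpoint, 18 held 5 or more, and the median held 2. The fullest was 3R from 5 to 6 Mb with 10 domains over 27.7% of it, then 3L from 3 to 4 Mb with 8 over 26.3%. On 2R from 6 to 7 Mb 7 domains took up 29.1%, the largest share of a window. A window could be marked and still hold no long domain. On 2L from 10 to 11 Mb 26.2% was enriched in replicate 1 and 19.5% in replicate 2, and on 3R from 11 to 12 Mb 19.7% and 22.8%, with no base in a long domain in either. Each arm was cut into 5 equal parts. From the telomere end to the centromere end these held 76, 66, 64, 61 and 45 domains over the 5 arms together. No single arm fell at every step. In the same order the parts held 18, 17, 10, 7 and 8 on 2L and 13, 12, 19, 15 and 9 on 2R. They held 19, 13, 15, 13 and 9 on 3L, 14, 18, 11, 19 and 14 on 3R and 12, 6, 9, 7 and 5 on X. On 3R the part at the centromere thus held as many as the part at the telomere. The counts of all series-wide regions by part are not given here.

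Some neighbours lay close together. In 20 of the 307 gaps the distance was under 5 kb, and these joined 39 domains into 19 groups of 44.7 to 96.5 kb, 18 of them pairs. No other series-wide region lay in 14 of the 20 gaps, and a shorter one lay in the other 6. The smallest gap, 29 bp, was on X between 17351624 to 17374934 and 17374964 to 17401540. The next were 61 bp on 2R between 11622712 to 11657606 and 11657668 to 11704674, 97 bp on 3L after 2554364 and 203 bp on 2R between 9749706 to 9794002 and 9794206 to 9814510. Then came 2 gaps of 565 bp, on 2R after 9945942 and on 3R after 5190432, where the domain before the gap was the highest-scored of 3R. In 2 of the 20 gaps a single replicate 1 region reached across the gap, on 3L after 2554364 and on 2R after 9945942, and no replicate 2 region reached across any. In the median of the 20 gaps 1.78% of the bases were enriched in replicate 1 and 0% in replicate 2. In 11 of the 20 under 10% of the gap was enriched in each replicate. A pair that is parted in the series-wide list counts as 2 domains, so the number of domains depends on such breaks.

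The only group of 3 was on 3L from 14267344 to 14361376, a span of 94.0 kb. It is also where the replicates differed most among the 19 groups, with 89.1% of the span enriched in replicate 1 and 52.1% in replicate 2. It contains the domain with the lowest share enriched in both (14309474 to 14340220) and the shortest domain of all (14341364 to 14361376), of which replicate 1 covered 95.2% and replicate 2 covered 39.5%. The first domain of the group, 14267344 to 14305978 (38.6 kb), had the highest score of the 3, at 0.98, against 0.48 and 0.54. The widest group was on 2L from 154890 to 251372, a pair over 96.5 kb whose span was enriched over 95.2% in replicate 1 and 94.4% in replicate 2.

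The series-wide domains outnumbered the long regions of either replicate. Replicate 1 had 218 regions of 20 kb or more on the major arms and replicate 2 had 179. In 140 of the 312 domains each replicate had such a region, in 67 replicate 1 alone did, in 31 replicate 2 alone did, and in 74 neither did. Of the 45 domains of 50 kb or more, each replicate had one in 41. The 74 are thus long in the series-wide list and made of shorter pieces in both replicates. Seen from the replicates, 96.0% of the bases of the long replicate 1 regions and 98.7% of those of replicate 2 lay in the domains.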

How the data were processed

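Wild-type Oregon-R third-instar larvae gave 2 H4K20me1 ChIP samples and 2 inputs, per the labels. Reads were aligned with Bowtie 0.12.7, per the submitters' processing notes; the build is FlyBase release 5, per the file headers. The authors deposited 1 list of enriched regions per replicate and 1 for the series; neither the region caller and its threshold nor the way replicates were combined is given in the sources used here. Starts and ends are 1-based positions. The deposited score is treated as a log2 value: relative to a recurring score, 2 raised to it equalled a fraction of integers with denominator up to 2000 (relative tolerance 1e-11) in 95.1% of replicate 1, 96.4% of replicate 2 and 82.6% of series-wide regions, against at most 1.13% with other bases.

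Shares, pieces, ends, gaps and flanks were computed with Python 3.11.15, NumPy 2.4.6, pandas 2.3.3 and SciPy 1.17.1, and checked on simulated lists. Of the lists, 1 row marked as depleted was left out and 1 region was clipped at a sequence end. The 95% intervals are exact Clopper-Pearson ones. No test was run: 1 condition with 2 replicates gives none. The gene table at hand is of release 6, so the planned count of genes was not run. Positions named are the 3 longest and 3 highest-scored domains of each arm, the 5 least shared, the 5 most divided, the 5 closest pairs, the 5 with the largest end distances, and 3 on either side of 20 kb; other positions named, among them gaps and windows, were chosen after their values were seen. The domains and these rules were chosen with earlier results of these data known.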

Additional observations from a re-analysis of the deposited data

How the results depend on the processing

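Depth is unknown, so none of these values carries a limit from read counts, and 2 replicates give little measure of spread. With a minimum length of 15 kb there were 490 domains holding 42.1% of the enriched bases, 101 of them 1 region in both replicates, a ratio of X to autosomal density of 0.74 and a median gap of 105 kb. With 30 kb these values were 147, 20.8%, 22, 0.42 and 449 kb. With regions within 1 kb joined first there were 424 domains against 312, and they held 46.0% of the bases. Their median share enriched in both was 85.1%, and 124 of them were 1 region in both. The median end distance was 848 bp against 682 bp, the ratio for X was 0.78 and the median gap 137 kb. Requiring at least 50% enriched in each replicate left 32.3% of the bases. The region of largest overlap gave a median end distance of 2147 bp. Flank bases in no long domain were enriched over 29.2%, against 35.5% for all flank bases. Leaving out each replicate in turn gave a median enriched share of 94.9 to 97.1%, 104 to 123 domains in 1 region, and a ratio for X of 0.48 to 0.63, the last from each replicate's own long regions; a share in 1 list is by construction at least that in both. The ratio for X, taken against the 4 autosomal arms together, was below 1 in each setting it was recomputed in (both lengths, joining, and without each replicate). Of 47 values recomputed, 24 moved past the spread used (1 SD of the replicates, 1.5 times for counts, and the binomial interval of a median) and 23 did not. Among the 23, the number of domains and their share of bases without each replicate could not change, since all 312 overlapped both; the spread for that share is therefore 0 and any change in it counted. No paired analysis was possible because the inputs have no region lists and there is 1 ChIP group.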

Other observations

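Of the replicates' own regions of 20 kb or more on the major arms, 7 of 218 in replicate 1 and 1 of 179 in replicate 2 met no long domain. Each of these 8 lay on shorter series-wide regions, 1 or 2 of them, of at most 19.9 kb, which covered between 89.3% and 100.0% of it. The longest was a replicate 1 region on 3L from 18014170 to 18041762 (27.6 kb), of which 73.2% was enriched in replicate 2 over 4 regions. The replicate 2 region was on 2R from 18783566 to 18803765 (20.2 kb), and 39.8% of it was enriched in replicate 1. These regions were chosen after their values were seen.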
